A study of Homo sapiens with 16 samples.

Results

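MHC class I and immunoproteasome genes were followed in 8 human lymphoid lines with and without drugs that act on chromatin. The set held 10 genes: B2M, HLA-E, HLA-F, TAP1, TAP2, TAPBP, PSMB8, PSMB9, PSMB10 and PSME2. They were chosen by name as all probe sets annotated to these symbols, which gave 18 of 22215 probe sets and 10 of the 11964 genes tested. The level of a gene is that of its brightest probe set by the mean of the 16 arrays, and its other probe sets are described beside it.

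MHC class I molecules show peptides from inside the cell to cytotoxic T cells and are made of a heavy chain and the light chain beta-2 microglobulin. Peptides are cut by the proteasome, in which interferon-induced subunits replace the standard catalytic ones to form the immunoproteasome, and are pumped by the TAP transporter into the endoplasmic reticulum, where tapasin helps to load them. Interferons raise most of these genes through factors such as those of the IRF family that bind interferon-stimulated response elements (ISRE), and lymphoid cells already carry many of them without stimulation.

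The cells were 4 lines of anaplastic large cell lymphoma (ALCL, a CD30-positive T-cell lymphoma), FE-PD, JB6, SU-DHL-1, Karpas 299, and 4 T-cell leukaemia lines, CCRF-CEM, Jurkat, Molt-3, Molt-4; values of lines follow this order. Each line was hybridised once after 6 days in 1 µM 5-aza-2'-deoxycytidine, an inhibitor of DNA methylation, joined over the last 24 hours by 625 nM trichostatin A, an inhibitor of histone deacetylases, and once untreated. This gave treated ALCL lines, untreated ALCL lines, treated T-cell lines and untreated T-cell lines, with n = 4 arrays in each of the 4 groups and no second array of any line and condition. FE-PD is known to lack the ALK fusion of the other ALCL lines. The 2 agents were only given together, no solvent control is described in the labels, and Molt-3 and Molt-4 are known to come from the same patient, so the 4 T-cell lines are not independent in that sense.

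Levels are log2 values of Affymetrix HG-U133A arrays, summarised with RMA, so a difference of 1 is a doubling. A gene is said to have risen, fallen or differed where limma's adjusted p was below 0.05 over all 11964 genes, and log2 differences carry limma's standard error after the ±. The labelled cell types carried their markers: 7 of 7 T-cell markers were lower and 6 of 6 ALCL markers higher in untreated ALCL lines than in untreated T-cell lines. Some properties of the arrays moved with treatment. Values on an array spread less after treatment in 8 of 8 lines (change of their SD -0.155 ± 0.0933, SD), the 3' minus 5' signal of ACTB was higher in 7 of 8 (0.60 ± 0.39, SD), the hybridisation spikes were higher in 7 of 8 (0.61 ± 0.63, SD), and the 28S ribosomal RNA control was higher by more than 3 on the log2 scale in 5 lines, all but Karpas 299, CCRF-CEM and Jurkat. Their part in the results was not tested.

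With treatment, the peptide transporter, tapasin and the 3 immunoproteasome subunits fell in both cell types. The class I chains of the set did not pass the test in the fit of genes. TAP1, TAP2, TAPBP, PSMB8, PSMB9 and PSMB10 fell in both ALCL and T-cell lines, by 2.02-fold for TAP1 in T-cell lines up to 10.4-fold for PSMB10 in T-cell lines. PSME2 fell in T-cell lines only just past the threshold. B2M, HLA-E and HLA-F were not called in either cell type, though B2M lay close to the threshold in T-cell lines, on the higher side, and passed it in 3 of 19 alternatives. In ALCL lines 6 of the 10 genes fell and 0 rose, where limma called 13.4% of all genes lower and 8.04% higher. In T-cell lines 7 of the 10 fell and 0 rose, where 20.2% of all genes were called lower and 21.7% higher (42% in either direction). All 10 genes lay among the 25% of genes with the highest untreated level, and of those 34.7% were called lower in ALCL lines and 47.5% in T-cell lines. The median change of the 10 genes was -1.30 in ALCL lines and -1.04 in T-cell lines, against 0.09 and 0.14 for all genes and -0.39 and -0.49 for the genes of high level. Treated lay below untreated in all 8 lines for 6 of the 10 genes, which was so for 14% of all genes, and by at least 0.5 on the log2 scale for 5, against 3.56% of all genes. The 4 treated and 4 untreated T-cell lines did not overlap for 6 of the 10, against 40.7% of all genes, nor the ALCL lines for 3, against 16.4%. These arrays hold bulk RNA, so fewer cells that carry a transcript and less of it per cell cannot be told apart.

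**Figure D1:**
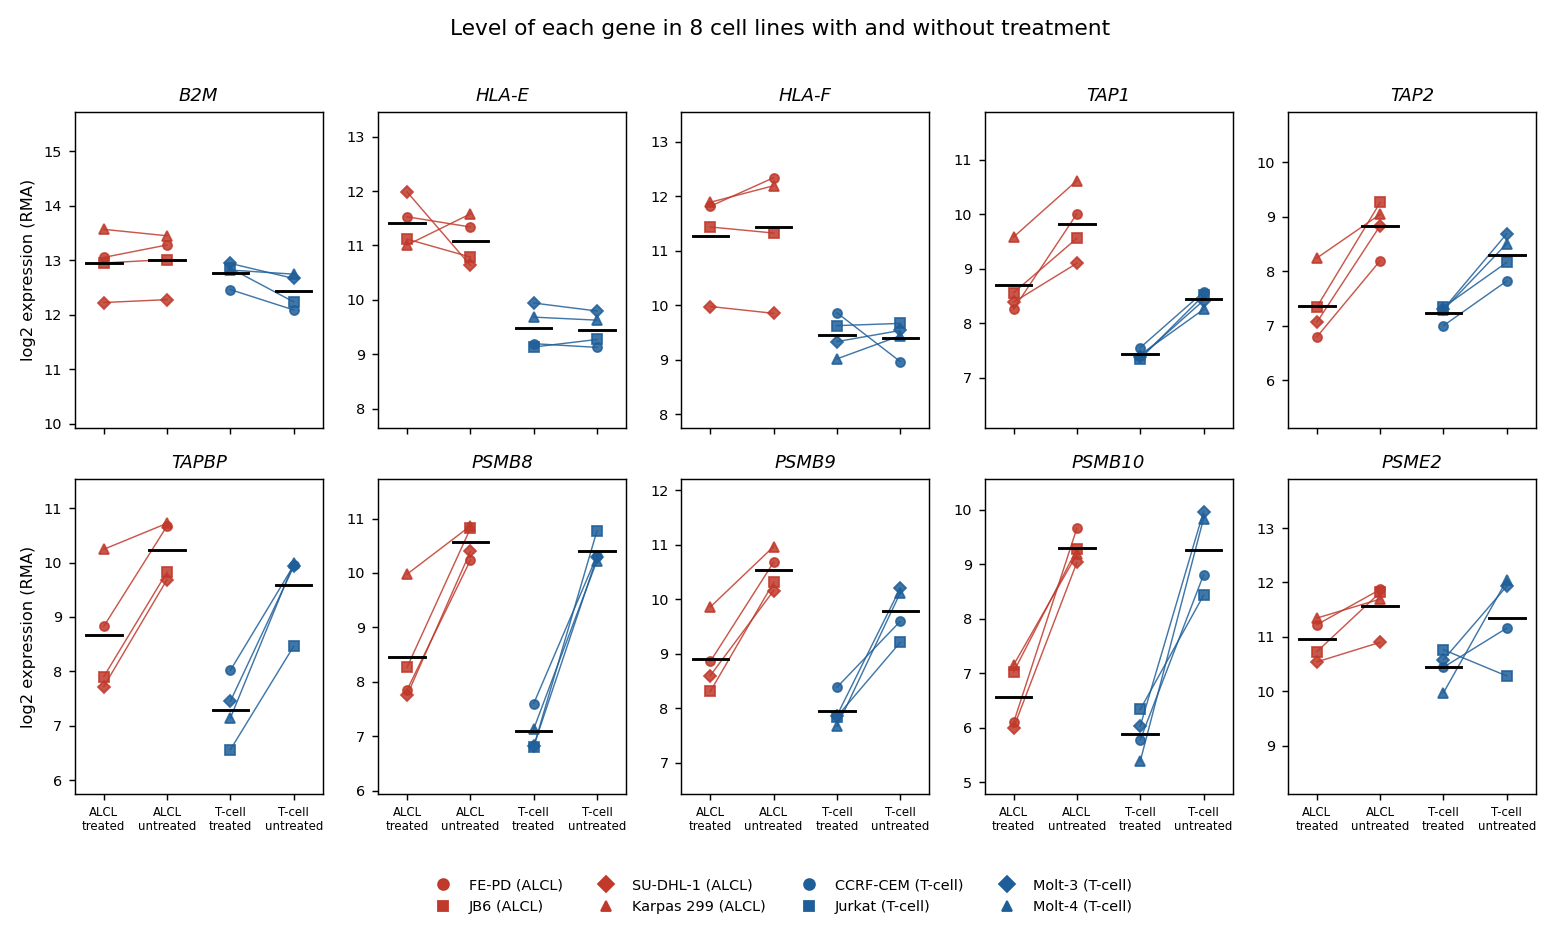
The log2 RMA level of each of the 10 genes is plotted for treated ALCL, untreated ALCL, treated T-cell and untreated T-cell lines, with 1 point per line, a thin line joining the 2 arrays of a cell line and a black bar at the mean of each group (n = 4). All panels span the same number of log2 units. PSMB10 shows the steepest lines, with means of 6.57 and 9.29 in treated and untreated ALCL lines and 5.88 and 9.26 in treated and untreated T-cell lines, and the lines for B2M stay close to level.

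TAP1 and TAP2 encode the 2 chains of the peptide transporter. TAP1 (probe set 202307_s_at) stood in treated ALCL lines at 8.26 in FE-PD, 8.56 in JB6, 8.39 in SU-DHL-1 and 9.59 in Karpas 299, against 10.01, 9.56, 9.10 and 10.62 in the same lines untreated. In T-cell lines it stood at 7.55 in treated CCRF-CEM, 7.35 in Jurkat, 7.39 in Molt-3 and 7.42 in Molt-4, against 8.58, 8.51, 8.42 and 8.25 untreated. Every line was lower when treated, the treated and untreated T-cell lines did not overlap, and treated Karpas 299 lay above untreated SU-DHL-1 and JB6. TAP1 fell 2.18-fold in ALCL lines (-1.12 ± 0.16, adjusted p = 0.00133) and 2.02-fold in T-cell lines (-1.01 ± 0.16, adjusted p = 0.00132). The T-cell lines lay close together, with SDs of 0.09 treated and 0.14 untreated, while those of ALCL lines were 0.60 and 0.65.

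TAP2 (204769_s_at) stood at 6.80, 7.35, 7.07 and 8.25 in the treated ALCL lines, against 8.20, 9.27, 8.84 and 9.05 untreated. Its levels in the treated T-cell lines were 7.00, 7.34, 7.31 and 7.29, against 7.82, 8.17, 8.69 and 8.51 untreated. All 8 lines were lower when treated, and the only overlap was between treated Karpas 299 and untreated FE-PD. TAP2 fell 2.78-fold in ALCL lines (-1.47 ± 0.19, adjusted p = 0.000745) and 2.09-fold in T-cell lines (-1.06 ± 0.19, adjusted p = 0.00227). Its other probe sets gave smaller values. In the fit of all probe sets 204770_at changed by -0.43 in ALCL lines (adjusted p = 0.0653) and by -0.40 in T-cell lines (adjusted p = 0.0495), and 208428_at, which lay between 4.43 and 4.95 on all arrays, by 0.01 and 0.15 (adjusted p = 0.95 and 0.237).

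TAPBP encodes tapasin, which holds the empty class I molecule at the transporter. Its probe set 208829_at gave 8.83, 7.90, 7.72 and 10.24 in the treated ALCL lines, against 10.67, 9.83, 9.69 and 10.72 untreated. In T-cell lines the levels were 8.02 in treated CCRF-CEM, 6.56 in Jurkat, 7.45 in Molt-3 and 7.14 in Molt-4, against 9.95, 8.46, 9.93 and 9.98 untreated. Karpas 299 moved least and kept a treated level above that of untreated JB6 and SU-DHL-1, and the T-cell groups did not overlap. TAPBP fell 2.93-fold in ALCL lines (-1.55 ± 0.25, adjusted p = 0.00252) and 4.87-fold in T-cell lines (-2.28 ± 0.25, adjusted p = 0.000258). The ALCL call was lost without the line as a block (adjusted p = 0.063). A second probe set, 210294_at, which lay between 5.50 and 6.23, changed by 0.13 in ALCL lines and 0.15 in T-cell lines and was not called, so the mean of both probe sets fell less, by 1.07 on the log2 scale in T-cell lines.

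PSMB8, PSMB9 and PSMB10 encode the catalytic subunits of the immunoproteasome. PSMB8 (209040_s_at) stood at 7.85, 8.27, 7.75 and 9.98 in the treated ALCL lines, against 10.23, 10.82, 10.39 and 10.86 untreated. It stood at 7.60, 6.80, 6.82 and 7.13 in the treated T-cell lines, against 10.32, 10.77, 10.29 and 10.22 untreated. The untreated lines of both types were close together, the treated groups did not overlap with the untreated ones, and treated Karpas 299 stood well above all other treated lines. PSMB8 fell 4.33-fold in ALCL lines (-2.11 ± 0.29, adjusted p = 0.00109) and 9.93-fold in T-cell lines (-3.31 ± 0.29, adjusted p = 8.27e-05).

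PSMB9 (204279_at) was at 8.86 in treated FE-PD, 8.31 in JB6, 8.60 in SU-DHL-1 and 9.86 in Karpas 299, against 10.68, 10.31, 10.16 and 10.97 untreated. The treated T-cell lines gave 8.38, 7.85, 7.86 and 7.67, against 9.60, 9.21, 10.20 and 10.12 untreated. No treated line reached an untreated line of its own type. PSMB9 fell 3.08-fold in ALCL lines (-1.62 ± 0.23, adjusted p = 0.00124) and 3.58-fold in T-cell lines (-1.84 ± 0.23, adjusted p = 0.000416).

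PSMB10 (202659_at) had the largest falls of the set by the fitted log2 difference in either cell type. It stood at 6.10, 7.03, 6.00 and 7.15 in the treated ALCL lines, against 9.67, 9.28, 9.04 and 9.19 untreated, and at 5.78, 6.34, 6.03 and 5.38 in the treated T-cell lines, against 8.81, 8.43, 9.97 and 9.84 untreated. Every treated line lay below every untreated line of either type. PSMB10 fell 6.60-fold in ALCL lines (-2.72 ± 0.36, adjusted p = 0.000928) and 10.4-fold in T-cell lines (-3.38 ± 0.36, adjusted p = 0.000207). The smallest change was -2.03 in Karpas 299 and the largest -4.46 in Molt-4.

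PSME2 encodes a subunit of the PA28 cap, which opens the proteasome and is induced by interferon gamma. Its only probe set, 201762_s_at, is also annotated to the microRNA gene MIR7703. PSME2 stood at 11.23, 10.73, 10.54 and 11.35 in the treated ALCL lines, against 11.87, 11.82, 10.90 and 11.70 untreated. In the treated T-cell lines it stood at 10.44, 10.76, 10.58 and 9.98, against 11.16, 10.28, 11.93 and 12.04 untreated. Jurkat was higher when treated, the other 7 lines were lower, and the groups overlapped in both types. PSME2 fell 1.88-fold in T-cell lines (-0.91 ± 0.33, adjusted p = 0.0461), which missed the threshold in 12 of 19 alternatives, also when any 1 line but Jurkat was left out (adjusted p between 0.0517 without JB6 and 0.227 without Molt-4), and its change in ALCL lines was not called (-0.61 ± 0.33, adjusted p = 0.201).

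The class I chains of the set gave mostly small changes of either sign. B2M, the light chain, stood by its probe set 216231_s_at at 13.05, 12.95, 12.23 and 13.57 in the treated ALCL lines, against 13.28, 13.02, 12.28 and 13.45 untreated. In the treated T-cell lines it gave 12.46, 12.86, 12.94 and 12.82, against 12.09, 12.24, 12.67 and 12.75 untreated. All 4 T-cell lines were higher when treated, yet the groups overlapped. The change was -0.06 ± 0.12 in ALCL lines (adjusted p = 0.759) and 0.34 ± 0.12 in T-cell lines (adjusted p = 0.0522). In the fit of all probe sets both probe sets of B2M rose in T-cell lines, 216231_s_at with adjusted p = 0.0475 and 201891_s_at by 0.62 ± 0.13 (4 of 4 lines, adjusted p = 0.00767), and neither was called in ALCL lines (adjusted p = 0.752 and 0.352). B2M was also called higher in T-cell lines with the mean of its probe sets (0.48, adjusted p = 0.00598) and with quantile normalization (0.45, adjusted p = 0.0156). Centred on the hybridisation spikes, B2M was lower by 0.33 in T-cell lines, where the median of all genes was -0.53.

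HLA-E and HLA-F are non-classical heavy chains, and HLA-E is a ligand of inhibitory receptors on natural killer cells. HLA-E (200905_x_at) stood at 11.53, 11.12, 11.98 and 11.01 in the treated ALCL lines, against 11.34, 10.79, 10.64 and 11.58 untreated. It stood at 9.20, 9.14, 9.94 and 9.68 in the treated T-cell lines, against 9.13, 9.27, 9.80 and 9.63 untreated. SU-DHL-1 gained 1.35 and Karpas 299 lost 0.57, and the T-cell lines hardly moved. HLA-F (204806_x_at) stood at 11.82, 11.43, 9.97 and 11.89 in the treated ALCL lines in that order, against 12.34, 11.32, 9.85 and 12.19 untreated. In the T-cell lines, in that order, it stood at 9.86, 9.62, 9.33 and 9.01 treated, against 8.96, 9.66, 9.53 and 9.44 untreated. By this probe set CCRF-CEM was the only T-cell line with more HLA-F when treated. The changes in ALCL and T-cell lines were 0.32 ± 0.24 and 0.03 ± 0.24 for HLA-E (adjusted p = 0.342 and 0.916) and -0.15 ± 0.21 and 0.06 ± 0.21 for HLA-F (adjusted p = 0.619 and 0.831). The other probe sets did not all move the same way, and none was called. HLA-E changed in ALCL and T-cell lines by -0.38 ± 0.21 and -0.15 ± 0.21 at 200904_at and by 0.22 ± 0.23 and 0.14 ± 0.23 at 217456_x_at. HLA-F changed by -0.19 ± 0.16 and 0.14 ± 0.16 at 221875_x_at, with CCRF-CEM and Jurkat higher when treated, and by -0.03 ± 0.14 and 0.37 ± 0.14 at 221978_at (adjusted p = 0.889 and 0.0589), with all 4 T-cell lines higher. Of the 6 probe sets of these 2 genes 4 carry the suffix _x_at, which marks probes that can bind related transcripts, so the signal may include other class I chains.

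**Figure D2:**
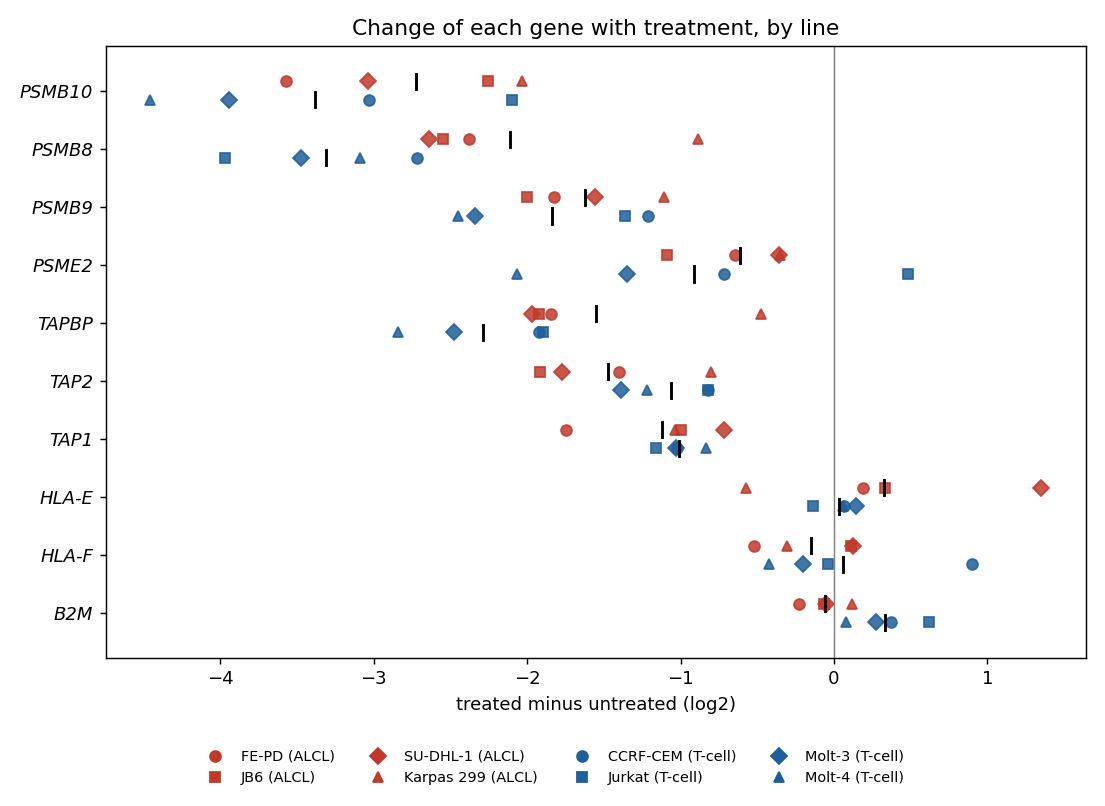
The change with treatment (treated minus untreated, log2) is plotted for each gene, with ALCL lines above and T-cell lines below, 1 symbol per line and a black tick at the mean of 4 lines. PSMB10, PSMB8, PSMB9, TAPBP, TAP2 and TAP1 lie left of 0 in all 8 lines, PSME2 in 7 of 8, and HLA-E, HLA-F and B2M lie on both sides of 0.

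The size of the fall differed between lines as well as between genes. The median change over the 6 genes that fell in both types was -1.83 in FE-PD, -1.96 in JB6, -1.87 in SU-DHL-1 and -0.96 in Karpas 299, and -1.57 in CCRF-CEM, -1.63 in Jurkat, -2.41 in Molt-3 and -2.65 in Molt-4. Karpas 299 thus moved least and the related pair Molt-3 and Molt-4 most. Karpas 299 also had the highest treated level of the 8 lines for 9 of the 10 genes, all but HLA-E, where it held the highest treated level of 12.9% of all genes, and the highest untreated level for 6 of the 10, against 10.2% of all genes. The 3 lines without a rise of the 28S control, Karpas 299, CCRF-CEM and Jurkat, gave mean changes of -1.07 for TAP1, -0.82 for TAP2, -1.43 for TAPBP, -2.52 for PSMB8, -1.23 for PSMB9, -2.38 for PSMB10 and -0.20 for PSME2. The 5 lines with the rise gave -1.07, -1.54, -2.21, -2.83, -2.03, -3.45 and -1.10 for the same genes. All 6 genes were also called in T-cell lines with CCRF-CEM and Jurkat alone. Karpas 299 was then the only ALCL line, so that fit held no spread between ALCL lines. The part of RNA quality in the size of these falls was not tested.

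No difference between the ALCL and T-cell changes was called by limma for any of the 10 genes, where 1.68% of all genes were called (1.11% higher in ALCL lines); at an unadjusted p below 0.05 there were 2. These were PSMB8, whose change was higher (less negative) in ALCL lines by 1.20 ± 0.41 (adjusted p = 0.223), and B2M, whose change was lower in ALCL lines by 0.39 ± 0.18 (difference -0.39, adjusted p = 0.384). A missed threshold does not show that the changes were alike in both types. The difference of TAPBP was 0.73 ± 0.36 (adjusted p = 0.44) and that of PSMB10 0.66 ± 0.51 (adjusted p = 0.652).

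The RefSeq promoter table (GRCh38.p14, 250 bases before to 50 after each start) held 11 windows of 9 of the 10 genes. They are shown because interferons are known to raise most of these genes through factors that bind the ISRE. An ISRE was searched as GAAA, any 2 bases and GAAA, which reads TTTC, any 2 bases and TTTC on the other strand. It stood in 8 of the 11 windows, those of 8 genes, and in 3.57% of 35116 promoters in the table. The genes were chosen by name and most are known to be raised by interferons, so such a share could be foreseen. A link between these letters and the changes was not tested. TAP1 and PSMB8 have a pair of listed starts each, and for both 1 of the windows held a match. The lines give the gene's strand 5' to 3' with 20 bases on either side and ISRE letters in capitals; TAP1 is shown as the whole window that held the matches.
TAP2 (chr6:32838768-32838817, minus strand): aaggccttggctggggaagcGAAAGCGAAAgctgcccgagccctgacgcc
TAPBP (chr6:33314063-33314118, minus strand): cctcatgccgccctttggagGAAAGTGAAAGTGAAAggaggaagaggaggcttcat
PSMB8 (chr6:32844022-32844071, minus strand): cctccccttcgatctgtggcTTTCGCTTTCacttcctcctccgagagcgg
PSMB10 (chr16:67936842-67936891, minus strand): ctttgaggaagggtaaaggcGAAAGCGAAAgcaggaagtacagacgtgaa
PSME2 (chr14:24146609-24146658, minus strand): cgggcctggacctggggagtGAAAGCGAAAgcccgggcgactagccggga
B2M (chr15:44711353-44711408, plus strand): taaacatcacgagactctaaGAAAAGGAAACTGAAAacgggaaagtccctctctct
HLA-F (chr6:29723258-29723307, plus strand): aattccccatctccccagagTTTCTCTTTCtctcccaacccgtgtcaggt
TAP1 (chr6:32853655-32853954, minus strand): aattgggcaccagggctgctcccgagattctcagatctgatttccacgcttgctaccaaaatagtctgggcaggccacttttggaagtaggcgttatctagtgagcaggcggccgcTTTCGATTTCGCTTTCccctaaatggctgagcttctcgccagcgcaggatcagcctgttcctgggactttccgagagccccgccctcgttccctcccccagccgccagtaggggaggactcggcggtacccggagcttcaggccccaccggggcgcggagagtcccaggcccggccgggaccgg

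TAP2, PSME2 and PSMB10 held the same 10 letters, GAAAGCGAAA, whose first base lay 58, 28 and 21 bases before the start. TAPBP, B2M and TAP1 each held 2 overlapping matches. The match of PSMB8 began 4 bases before its start and ran across it. The starts of TAP1 and PSMB9 lie 488 bases apart on opposite strands and their windows share 13 bases. ISRE letters were not in the window of PSMB9, a gene that fell. The matches of TAP1, 134 and 128 bases before its start, lie between both starts but outside the window of PSMB9. HLA-F and B2M, which were not called, held ISRE letters. An NF-kB motif was searched on both strands as GGG, any 2 bases, TT, any base and CC. It stood in the windows of TAP1, TAPBP and B2M, 3 of the 9 genes, and in 5.68% of all promoters. Further motifs were searched on both strands as well. TTC, any 3 bases and GAA stood in windows of PSMB8 and TAP1, and in 7.66% of all promoters. TGACG stood in windows of TAP2, PSMB8, PSMB9 and B2M, and in 24.6% of all promoters. The letters CCAAT stood in windows of HLA-F, TAP1, PSMB9 and B2M, and in 34.6% of all promoters. For TAP1 and PSMB9 this was the same site, within the 13 bases that their windows share. A link between these motifs and the changes was not tested. The 300-base window of PSMB10 held 7 CpG sites, fewer than any other of the 11, and that of PSMB9 held the most, 26.

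The standard proteasome subunits that the inducible ones replace also moved. PSMB5, PSMB6 and PSMB7 are the counterparts of PSMB8, PSMB9 and PSMB10, and PSME1 is the partner of PSME2 in the cap. PSMB5 fell 2.24-fold in ALCL lines (-1.16 ± 0.16) and 3.26-fold in T-cell lines (-1.70 ± 0.16), and PSMB6 fell 2.35-fold (-1.23 ± 0.18) and 3.57-fold (-1.83 ± 0.18). PSMB7 and PSME1 fell in T-cell lines (-0.86 ± 0.23, adjusted p = 0.0162, and -0.66 ± 0.17, adjusted p = 0.0138). Neither was called in ALCL lines (-0.48, adjusted p = 0.158, and -0.46, adjusted p = 0.079).

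Set against its counterpart within each line, PSMB10 changed more than PSMB7 in 8 of 8 lines, by -2.38 ± 0.63 on the log2 scale (SD over 8 lines, between -3.33 and -1.35). PSMB8 changed more than PSMB5 in 8 of 8, by -1.28 ± 0.60 (between -2.30 and -0.36). PSMB9 and PSMB6 differed by -0.20 ± 0.33 with PSMB9 lower in 7 of 8 lines, and PSME2 and PSME1 differed by -0.20 ± 0.46 with PSME2 lower in 6 of 8. These are differences between changes of different probe sets, whose scales may differ, and they were not tested.

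**Figure D3:**
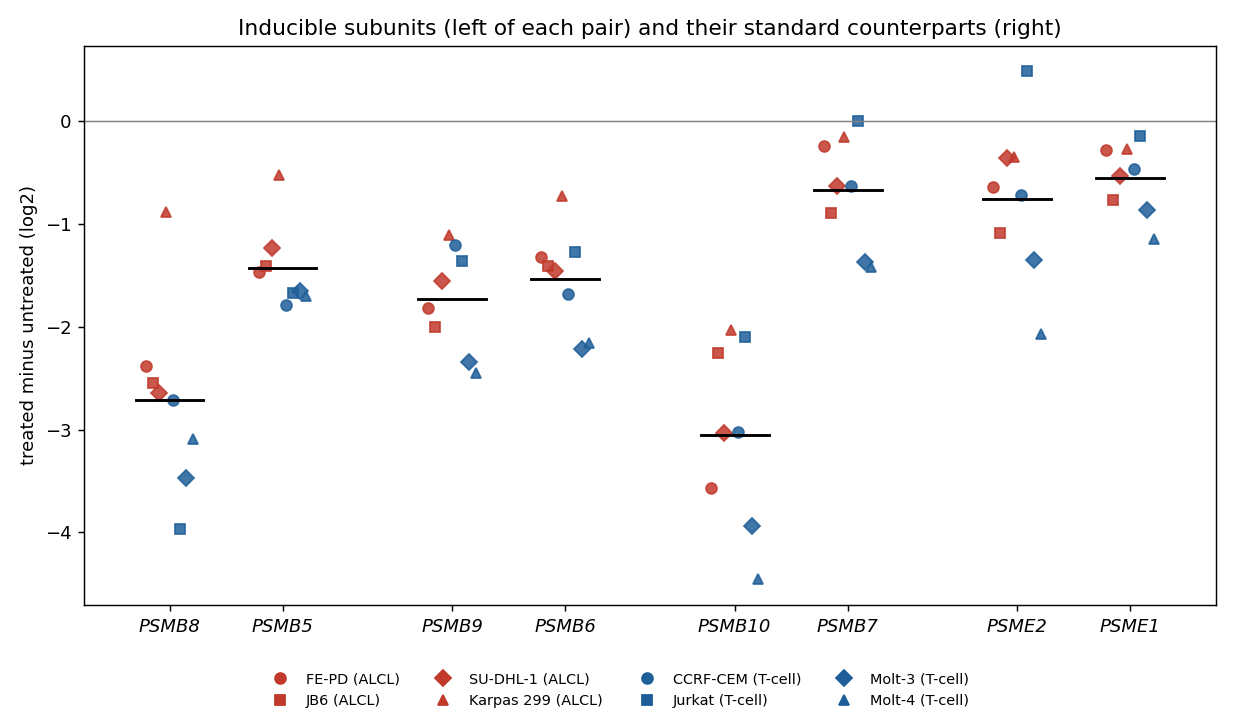
The change with treatment (treated minus untreated, log2) is plotted for each inducible subunit and, to its right, its standard counterpart, with 1 symbol per line (ALCL lines left of T-cell lines) and a bar at the mean of 8 lines. For PSME2 the gene to its right is PSME1, its partner in the cap and not a subunit that it replaces. PSMB8 and PSMB10 lie below PSMB5 and PSMB7, with means of -2.71 and -3.05 against -1.43 and -0.67, while PSMB9 and PSMB6 have means of -1.73 and -1.53.

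Treated and untreated lines were also compared between cell types, which asks what sets ALCL apart from T-cell leukaemia. Before treatment 3 of the 10 genes, HLA-E, HLA-F and TAP1, were higher in ALCL lines and 0 lower, where 3.18% of all genes were called higher and 5.58% lower (8.76% in all). HLA-E was 3.09-fold higher (11.09 ± 0.45 in ALCL lines and 9.46 ± 0.31 in T-cell lines, SD, n = 4 each; difference 1.63 ± 0.25, adjusted p = 0.00693). HLA-F was 4.07-fold higher (11.43 ± 1.14 and 9.40 ± 0.31; difference 2.03 ± 0.51, adjusted p = 0.048), with SU-DHL-1 near the T-cell lines. TAP1 was 2.61-fold higher (9.82 ± 0.65 and 8.44 ± 0.14; difference 1.38 ± 0.29, adjusted p = 0.0267). For these 3 genes no T-cell line reached an ALCL line; the 4 and 4 values did not overlap, in either direction, for 18.3% of all genes. HLA-F missed the threshold in 12 of 16 alternatives (largest adjusted p = 0.26), also when any 1 line but SU-DHL-1 was left out (largest 0.116, without Molt-4), and TAP1 in 6 of 16 (largest 0.0819), also when FE-PD, Jurkat, Molt-3 or Molt-4 was left out.

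The same 3 genes were higher in treated ALCL than in treated T-cell lines, where 1.35% of all genes were called higher (2.88% either way). HLA-E stood 3.78-fold higher (11.41 ± 0.44 and 9.49 ± 0.39; difference 1.92 ± 0.27, adjusted p = 0.00688), HLA-F 3.54-fold (11.28 ± 0.89 and 9.46 ± 0.37; 1.82 ± 0.41, adjusted p = 0.0494) and TAP1 2.42-fold (8.70 ± 0.60 and 7.43 ± 0.09; 1.27 ± 0.27, adjusted p = 0.0419). The calls of HLA-F and TAP1 were lost in 11 and 9 of 16 alternatives, those of HLA-F when any 1 line other than SU-DHL-1 was left out (adjusted p up to 0.147, without Molt-3) and those of TAP1 without JB6, SU-DHL-1 or any 1 T-cell line (up to 0.133, without Molt-3). PSMB8 did not overlap between the treated groups either (8.46 ± 1.03 and 7.09 ± 0.37), but was not called (1.37 ± 0.46, adjusted p = 0.17). With it, 4 of the 10 genes did not overlap, against 10.1% of all genes. The probe set 217456_x_at of HLA-E was called in both conditions too (1.39, adjusted p = 0.0337 untreated; 1.48, adjusted p = 0.00968 treated), and 200904_at, the only one of the 3 without the suffix, in neither (0.98, adjusted p = 0.126, and 0.76, adjusted p = 0.359). In the fit of all probe sets none of the 3 of HLA-F was called in either condition. Untreated and treated, adjusted p was 0.0551 and 0.0614 for 204806_x_at, 0.0548 and 0.058 for 221875_x_at, and 0.0941 and 0.688 for 221978_at.

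The series title asks whether treated T-cell lines come to resemble ALCL lines. For these genes treated T-cell lines lay below untreated ALCL lines in 9 of 10 calls, all but B2M, where 9.1% of all genes were called lower and 8.82% higher. PSMB8 was 11.2-fold lower in treated T-cell lines (7.09 ± 0.37, against 10.58 ± 0.31 in untreated ALCL lines; difference -3.49 ± 0.23, adjusted p = 6.52e-05) and PSMB10 10.6-fold (5.88 ± 0.40 against 9.29 ± 0.27; -3.41 ± 0.23, adjusted p = 6.65e-05). TAPBP was 7.63-fold, PSMB9 6.02-fold and TAP1 5.27-fold lower. TAP2 (3.03-fold), HLA-E (3.02-fold), HLA-F (3.92-fold) and PSME2 (2.19-fold) were lower too, the last 2 losing their calls in 7 and 4 of 16 alternatives. The groups did not overlap for 8 of the 10 genes, against 25.9% of all genes, and HLA-F overlapped through SU-DHL-1. This comparison shares its arrays with the treatment comparison in T-cell lines and the untreated comparison.

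Other genes of the pathway gave a mixed picture, in lists drawn up with earlier results known. Of 8 other class I chains measured, 1 rose and 0 fell in ALCL lines and 2 rose and 0 fell in T-cell lines. Of all genes 8.04% rose and 13.4% fell in ALCL lines, and 21.7% rose and 20.2% fell in T-cell lines. MICA, a stress-induced ligand of the receptor NKG2D, rose 2.18-fold in ALCL lines (1.13 ± 0.24, adjusted p = 0.00918), with levels of 7.97, 8.07, 6.51 and 6.76 in the treated ALCL lines, against 6.64, 5.99, 5.97 and 6.22 untreated. In T-cell lines MICA was higher in each treated line too, by 0.38, 1.02, 0.45 and 0.67, but was not called. No chain of this list was called for a difference between the cell types in its change. HLA-B, a classical heavy chain, rose 1.44-fold in T-cell lines (0.52 ± 0.19, adjusted p = 0.0477, not called in 12 of 19 alternatives) and HFE, the class I-like protein of iron balance, 1.33-fold (0.42 ± 0.14, adjusted p = 0.0373, lost in 6 of 19). Centred on the spikes, HFE and HLA-B turned to -0.25 and -0.15. HLA-G was higher in ALCL lines both treated (1.53 ± 0.28, adjusted p = 0.0221) and untreated (1.65 ± 0.41, adjusted p = 0.0443), by a probe set that again carries the suffix _x_at. These calls were lost in 5 and 11 of 16 alternatives (adjusted p up to 0.151 and 0.28).

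Of 8 genes of peptide loading and trimming, 1 fell in ALCL lines and 2 in T-cell lines, and 0 rose in either. The share of all genes that fell was 13.4% in ALCL lines and 20.2% in T-cell lines. TAPBPL, a tapasin-related peptide editor, fell 1.59-fold in ALCL lines (-0.66 ± 0.18, adjusted p = 0.0269, lost in 6 of 18 alternatives) and 2.48-fold in T-cell lines (-1.31 ± 0.18, adjusted p = 0.00067). ERAP2, an aminopeptidase that trims peptides, fell 9.54-fold in T-cell lines (-3.25 ± 0.46, adjusted p = 0.000698), to 5.02, 4.33, 5.20 and 4.94 in the treated T-cell lines, against 7.66, 6.64, 9.11 and 9.08 untreated. In the treated ALCL lines ERAP2 stood at 4.72, 4.70, 4.68 and 4.66, against 7.62, 4.78, 6.55 and 4.92 untreated. It was low in all treated lines and already low in untreated JB6 and Karpas 299, and its change in ALCL lines was not called (-1.28 ± 0.46, adjusted p = 0.0722).

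Some other proteasome genes fell as well. Of 13 core subunits 7 fell in ALCL lines and 8 in T-cell lines, and of 18 cap and assembly genes 5 and 9, with 0 rises in either list. Of all genes 13.4% and 20.2% were called lower, and of genes of high level 34.7% and 47.5%. The cap and assembly counts lay near the shares of genes of high level. Not all listed genes were of high level, such as PSME4 (untreated means 7.99 in ALCL and 8.19 in T-cell lines, bound 8.47). The core subunits PSMA1 and PSMA4 fell in ALCL lines (-0.96 ± 0.19 and -0.93 ± 0.18) and in T-cell lines (-1.17 ± 0.19 and -1.02 ± 0.18), and so did the cap ATPase PSMC3 (-1.52 ± 0.23 and -1.83 ± 0.23) and the cap subunit PSMD11 (-0.71 ± 0.17 and -1.12 ± 0.17). List medians in ALCL and T-cell lines were -0.71 and -0.87 for the core and -0.45 and -0.63 for caps and assembly, against -1.30 and -1.04 for the 10 genes.

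Among 21 measured regulators of class I genes, 3 rose and 6 fell in ALCL lines and 3 rose and 7 fell in T-cell lines. Shares of all genes that rose and fell were 8.04% and 13.4% in ALCL lines and 21.7% and 20.2% in T-cell lines. The 5 lists held 8, 8, 13, 18 and 21 measured genes. Limma called a difference between the cell types in the change of 1, against 1.68% of all genes. This gene was IRF1, an interferon-induced activator that binds the ISRE. It stood at 8.33, 7.54, 7.45 and 8.73 in the treated ALCL lines, against 8.10, 7.49, 7.08 and 8.65 untreated, and at 7.17, 7.64, 8.17 and 8.16 in the treated T-cell lines, against 8.24, 8.92, 9.29 and 9.23 untreated. IRF1 was thus slightly higher in all 4 treated ALCL lines (0.18 ± 0.11, adjusted p = 0.257) and lower in all 4 treated T-cell lines, where it fell 2.20-fold (-1.14 ± 0.11, adjusted p = 0.000142). The difference of these changes was 1.32 ± 0.16 (adjusted p = 0.00342) and was not called in 4 of 18 alternatives, those without the block, with line as a random block, with spike centring and in the lines without the 28S rise (adjusted p between 0.114 and 0.592).

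Of the other regulators, NFYC and NFYB, subunits of the factor NF-Y that binds the CCAAT box, fell in ALCL lines (-1.16 ± 0.19 and -0.88 ± 0.19) and in T-cell lines (-1.50 ± 0.19 and -1.12 ± 0.19). RFXANK, a subunit of the RFX complex at MHC promoters, fell in both as well (adjusted p = 0.0315 in ALCL and 0.0011 in T-cell lines), and JAK1, a kinase of interferon receptors, rose in both (0.84 ± 0.14 and 0.82 ± 0.14). DNMT1, the maintenance methyltransferase, fell in ALCL lines (-1.49 ± 0.25) and was not called in T-cell lines (-0.64 ± 0.25, adjusted p = 0.0578). IFNGR1, the ligand-binding chain of the interferon gamma receptor, was 4.15-fold higher in untreated ALCL than in untreated T-cell lines (9.80 ± 0.58 and 7.75 ± 0.38, difference 2.05 ± 0.31, adjusted p = 0.00683). Of 21 regulators 3 were higher and 3 lower in untreated ALCL lines, against 3.18% and 5.58% of all genes. The lower ones were NFYA (-1.42, adjusted p = 0.01), NFYB (-1.05, adjusted p = 0.0113) and HDAC1 (-0.91, adjusted p = 0.00833). IRF2 was 3.53-fold lower in treated T-cell lines than in untreated ALCL lines (7.34 ± 0.29, against 9.16 ± 0.14; -1.82 ± 0.17, adjusted p = 0.000343). NLRC5, the main activator of class I genes, was not among the genes with a level here.

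**Figure D4:**
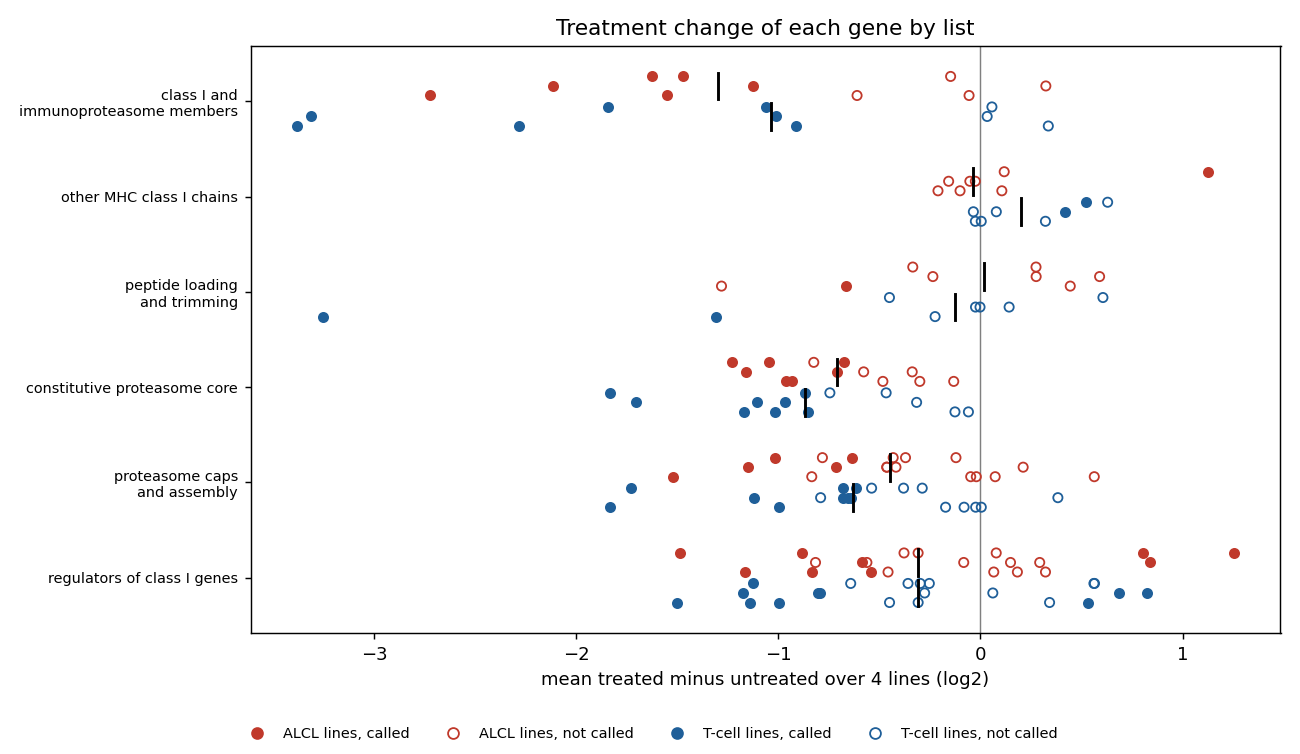
The mean change with treatment (log2, over 4 lines) is plotted for each gene of the set and of the 5 lists, with ALCL lines above T-cell lines, filled circles for called genes and a black tick at the median. The set has medians of -1.30 and -1.04 in ALCL and T-cell lines, and the constitutive core of -0.71 and -0.87. The class I chains have medians of -0.04 and 0.20, with MICA at 1.13 in ALCL lines and also right of 0 in T-cell lines, where it was not called.

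Within the set, levels over the 16 arrays were most alike for TAPBP and PSMB9 (Pearson r = 0.961, n = 16), followed by PSMB8 and PSMB9 (0.916) and PSMB10 and PSMB8 (0.904). TAP1 was most like PSMB9 (0.863) and TAP2 most like PSMB8 (0.871), while HLA-E, HLA-F and B2M were most like each other (0.767 for HLA-E and HLA-F, 0.752 for B2M and HLA-F). Outside the set, the genes most like the mean of its 10 standardised levels were PLAAT4 (0.919), XYLT2 (0.909), TNIP1 (0.902), IL27RA (0.899) and TPM4 (0.898). PLAAT4 fell by 1.75 ± 0.36 in ALCL lines and by 1.85 ± 0.36 in T-cell lines on the log2 scale, and TPM4, a tropomyosin, by 1.46 ± 0.18 and 1.82 ± 0.18. These correlations describe 16 arrays that share 8 lines and 1 treatment.

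Some markers of cell types moved with treatment, where 21.7% of all genes rose and 20.2% fell in T-cell lines. In ALCL lines 8.04% of all genes rose and 13.4% fell. The 7 T-cell markers all fell in T-cell lines and 0 were called by limma in ALCL lines (1 at an unadjusted p below 0.05), and of 6 ALCL markers 2 rose in T-cell lines, while in ALCL lines 1 rose and 2 fell. The T-cell markers had summed log2 levels between 54.7 and 57.8 in treated and between 70.5 and 73.8 in untreated T-cell lines, and between 49.2 and 51.0 in treated and between 46.5 and 51.0 in untreated ALCL lines. Of 5 fibroblast markers 3 rose in T-cell lines, with sums between 32.1 and 35.0 treated and between 30.3 and 31.5 untreated, as did 1 of 3 measured B-cell markers. Of 5 measured myeloid and dendritic cell markers 1 was higher in ALCL lines both treated and untreated. The shares of all genes called higher in these comparisons were 1.35% treated and 3.18% untreated. Summed levels of the 5 markers lay between 32.7 and 34.4 in treated ALCL and between 29.5 and 32.1 in treated T-cell lines. Untreated, they lay between 31.6 and 36.6 in ALCL and between 28.2 and 30.0 in T-cell lines. The part of these markers in the results was not tested.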

How the data were processed

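RNA of 16 cultures was hybridised to Affymetrix HG-U133A arrays, and the authors deposited log2 values that, per the submitters' processing notes, come from RMA run in R 2.10.1. They ran from 3.36 to 14.4 with array medians of 6.78 to 6.96. Genome build, detection calls and scanner files were not used here, so levels are not set against background, and the number of arrays limits the precision. Of 22283 probe sets, 19065 have 1 gene symbol in the platform annotation, 1043 several and 2107 none, and 68 are controls; 11956 of the 11964 genes were found in a RefSeq table. PSME2 was kept although its probe set has several symbols.

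From these values, groups were taken from the labels and compared with limma 3.58.1 in R 4.3.3 (lmFit and eBayes, two-sided), with Benjamini-Hochberg adjustment over all 11964 genes, or all probe sets where stated. Treatment effects and their difference came from 1 fit of 16 arrays with line as a fixed block and 6 residual degrees of freedom, and comparisons between cell types from 8 arrays each. The line is the replicate, and each line pairs its own treated and untreated arrays. Their deviations from group means correlated at 0.33 to 0.643, but Molt-4 correlated more with another T-cell line (0.399) than with itself (0.33).

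The 10 genes, the lists and the alternatives were chosen with earlier results of these data known. Text names all 10 genes, up to 4 called genes of every list and comparison by adjusted p, the standard counterparts PSMB5, PSMB6 and PSMB7, the cap partner PSME1, and the 5 genes most like the set; not all are named in every comparison. Alternatives were other uses of probe sets, a filter on the lowest 40% of genes, quantile and spike scaling, other fits, and leaving out lines. Scripts were tested on simulated data. Promoters are from RefSeq, GRCh38.p14.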

Additional observations from a re-analysis of the deposited data

Results flagged for a closer look

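In 60 groups of 4 values (levels and changes of the 10 genes), 5 had 1 line far from the others by Dixon's criterion, which chance alone passes in about 5% of groups. Treated CCRF-CEM had a TAP2 level of 7.00, below the 7.29 to 7.34 of the other treated T-cell lines. Untreated Jurkat stood apart in a pair of genes. Its TAPBP level of 8.46 lay below the 9.93 to 9.98 of the other untreated T-cell lines, and its PSMB8 level of 10.77 lay above their 10.2 to 10.3. Karpas 299 changed least of the ALCL lines in TAPBP (-0.48, the others between -1.97 and -1.84) and in PSMB8 (-0.89, the others between -2.64 and -2.38). Karpas 299 was also the only ALCL line without a rise of the 28S control, and the part of this in its smaller changes was not tested.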

How the results depend on the processing

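Over the 6 comparisons and up to 19 alternatives, the falls of TAP1, TAP2, TAPBP, PSMB8, PSMB9 and PSMB10 in T-cell lines passed the threshold in each alternative run, and those in ALCL lines in each except in the lines without the 28S rise and, for TAPBP, without the block. Of the values of the 10 genes under alternatives, 923 kept direction and side of the threshold, 74 lost and 7 gained a call, and 36 changed sign without being called in either fit. For other named genes 1082 kept both, 178 lost and 3 gained a call, and 5 changed sign. The lines with and without the 28S rise, and the cell type fitted alone, hold fewer arrays.

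With each line pairing its own arrays as a block, 5019 genes were called in T-cell lines, 2566 in ALCL lines and 201 for the difference. Without the block, 1440 were called in ALCL lines and 62 for the difference, and of the 10 genes PSME2 in T-cell lines and TAPBP in ALCL lines lost their calls (adjusted p = 0.0577 and 0.063).

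In T-cell lines the count of all genes was 8607 by probe set, 3157 with spike centring, 1495 in the lines without the 28S rise and 2520 to 5493 with 1 line left out (lowest without Molt-3, 2572 without Molt-4). In ALCL lines it was 4072 by probe set, 6 in the lines without the 28S rise, where 0 of the 10 genes were called, and 1432 to 2648 with 1 line left out (1432 without JB6, 1526 without SU-DHL-1). For the difference it was 65 with spike centring, 0 in the lines without the 28S rise and 67 to 195 with 1 line left out (67 without Molt-3, 88 without Molt-4). Untreated ALCL against untreated T-cell lines gave 1048, against 1625 by probe set, 689 and 111 in the lines with and without the 28S rise, where 0 of the 10 genes were called, and 455 to 1194 with 1 line left out (455 without Molt-3, 476 without Molt-4), with 1 to 4 of the 10 genes (1 without FE-PD, Jurkat, Molt-3 or Molt-4). Treated ALCL against treated T-cell lines gave 345, against 98 and 152 in the lines with and without the 28S rise, again with 0 of the 10, and 130 to 348 with 1 line left out (203 without CCRF-CEM, 130 without Molt-3, 217 without Molt-4). Of the 10 genes 1 was called there by probe set, 5 with spike centring and 1 to 2 with 1 line left out (1 without JB6 or any T-cell line). Treated T-cell against untreated ALCL lines gave 2144, against 3565 by probe set, 354 in the lines without the 28S rise and 1235 to 2103 with 1 line left out (1422 without JB6, 1235 without Molt-3).

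With spike centring the all-gene median was -0.53 in T-cell lines (0.14 with RMA values) and -0.47 in ALCL lines (0.09), and 0.34, 0.38 and -0.88 in untreated ALCL against T-cell lines (0.04), treated ALCL against T-cell lines (-0.03) and treated T-cell against untreated ALCL lines (0.09). The share of calls that were higher became 2.09% in T-cell lines (51.8% with RMA values), 4.08% in ALCL lines (37.5%), 76.9% for the difference (66.2%), and 73.1%, 90.8% and 2.15% in the last 3 comparisons (36.3%, 47.0% and 49.2%). The medians of the 10 genes became -1.71 in T-cell lines and -1.86 in ALCL lines.

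Values that changed sign were, in T-cell lines, B2M -0.33, HLA-E -0.64, HLA-F -0.61, HFE -0.25 and HLA-B -0.15 with spike centring, HLA-E -0.0048 without Molt-3 and -0.035 in the lines without the 28S rise, and HLA-F -0.22 without CCRF-CEM and -0.31 in the lines with it. In ALCL lines they were B2M at 0.06 with the mean of probe sets, 0.06 with quantile scaling, 0.00066 without FE-PD and 0.12 in the lines without the 28S rise, HLA-E at -0.24 with spike centring, -0.019 without SU-DHL-1 and -0.57 in the lines without the 28S rise, HLA-F at 0.13 with quantile scaling, IRF1 at -0.38 with spike centring and TNIP1 at 0.92 in the lines without the 28S rise. For the difference they were HLA-E at -0.052 without SU-DHL-1, HLA-F at 0.076 without CCRF-CEM and 0.22 in the lines with the 28S rise, TAP1 at 0.0034 with quantile scaling and 0.10 without FE-PD, PSME2 at -0.082 without Molt-4, and in the lines without the 28S rise HLA-E at -0.54, TAP1 at 0.057, TAP2 at 0.019 and PSME2 at -0.23. Between untreated lines PSMB10 was at -0.094, -0.12 and -0.25 without FE-PD, CCRF-CEM and Jurkat and -0.58 in the lines with the 28S rise, and PSME2 at -0.14 without Jurkat and -0.46 in the lines with the rise. Between treated lines B2M and TAP2 were at -0.027 and -0.17 without Karpas 299 and -0.14 and -0.23 in the lines with the rise. Between treated T-cell and untreated ALCL lines B2M was at 0.024 in the lines with the rise and CALR at -0.37 with spike centring. The cause of these changes was not tested. With 4 arrays in a group and no detection calls, signal over background could not be weighed. The p-values of treatment effects and of their difference measure the spread of changes between lines, pooled over both cell types. Those of comparisons between cell types measure the spread of levels between lines. No line was repeated.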
